A study of Homo sapiens with 6 samples.

Results

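The genes described here carry out homologous recombination, the Fanconi anemia repair pathway and the DNA damage checkpoint. They are 31 genes, chosen by name, and all 31 were found among the 16834 genes of the deposited table. The names were matched to the table's gene symbols, and the list was drawn up with earlier results of these data known.

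RNA was measured in 6 libraries from asynchronously growing HEK293-T Flp-In cells, a human embryonic kidney line that carries simian virus large T antigen and a single recombination site. All 6 libraries share 1 transgene, ccTaggedRP, inserted at that site and driven by the ubiquitous CAG promoter. Its bicistronic transcript encodes mouse RPL10a, a protein of the large ribosomal subunit, in 2 tagged forms. Flag-RPL10a-hCdt carries a Cdt1 degron and is degraded from late S through M phase, and HA-RPL10a-hGem carries a Geminin degron and is degraded from late G1 into early S phase. Ribosome-bound RNA was recovered with an anti-Flag antibody in 3 libraries (Flag-IPs) and with an anti-HA antibody in 3 libraries (HA-IPs), and the question was which transcripts differ between the phases in cells that were never synchronized. The groups are therefore 2 recoveries from 1 engineered line, with no synchronizing drug, and cells in S phase can hold both proteins. Per the study's methods, the medium of the cells used for both IPs held fetal bovine serum and the antibiotic hygromycin B. No input RNA and no IP from untagged cells was analysed here. In bulk RNA of this kind, a change in the number of cells in a phase and a change in ribosome-bound RNA per cell cannot be told apart. The 2 recoveries also differ in tag and antibody. A difference of phase and a difference that comes with the tag, antibody or background of the IP therefore cannot be told apart either.

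Homologous recombination repairs a broken chromosome by copying the sister chromatid, which exists only after replication. Nucleases first resect the broken end, mediators and strand exchange factors then act on the exposed strand, and helicases separate the joined molecules afterwards. The Fanconi pathway unhooks crosslinks between DNA strands: a core complex with ubiquitin ligase activity modifies the FANCD2 and FANCI pair, and downstream nucleases, helicases and recombination factors complete the repair. The kinases ATM and ATR sense breaks and stalled forks, and CHEK1 and CHEK2 pass the signal on to the cell cycle machinery.

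The libraries held 23174532 to 44134833 reads on the listed genes, and the members had means of 295 to 16521 normalized counts over the 6 libraries, which gives a counting error of about 5.82% for the lowest of them and 0.778% for the highest. A normalized count is a read count after the authors' division by the size factor of its library. The median coefficient of variation over the 31 genes was 4.54% among the Flag-IPs and 3.25% among the HA-IPs. The labels do not say whether libraries came from separate cultures, so p-values measure the spread between these samples, which may be technical. Of 8 markers of HEK293-type lines all 8 were in the table, with NEFL (neurofilament light chain) at 28435 ± 896 (SD, n = 3) in the Flag-IPs against 28091 ± 640 (SD, n = 3) in the HA-IPs. Of these 8, INA was called higher in the HA-IPs (1202 ± 82.3 against 1534 ± 52.7, SD, n = 3 each) and PAX2 higher in the Flag-IPs (112 ± 18.7 against 65.4 ± 18.8, SD, n = 3 each). Of 8 markers of differentiated kidney, SLC12A1, LRP2 and CUBN were in the table. LRP2 was called higher in the HA-IPs (3708 ± 517 against 4521 ± 195, SD, n = 3 each), SLC12A1 higher in the Flag-IPs (50.3 ± 21.5 against 2.49 ± 2.14, SD, n = 3 each), and CUBN did not pass. Heart muscle markers stood apart in the Flag-IPs: 22 of 27 were in the table, and all 22 were called higher there (beside 7.1% of all genes). That list was written knowing that earlier results of these data show such genes in the Flag-IPs, so this count is no separate result. They summed to 100163 to 210286 normalized counts (0.325% to 0.699% of a library) against 2180 to 20022 (0.00692% to 0.0632%) in the HA-IPs. No member is on that list, and its part in the results below was not tested.

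In order of adjusted p, 8 members (BLM, FANCD2, FANCM, ATR, BRIP1, FANCI, BRCA1 and BRCA2) were higher in the HA-IPs, by 13.9% to 20.6%. None was called higher in the Flag-IPs, where RAD51C alone had an unadjusted p under 0.05 and neither edgeR nor DESeq2 called any. The test was limma on log2(normalized count + 1) across all 16834 genes, two-sided, with Benjamini-Hochberg adjustment over all of them and a threshold of 0.05, and a positive log2 fold change means a higher level in the HA-IPs. The count of 8 of 31 (25.8%) stands beside 975 of all genes (5.79%) called higher in the HA-IPs, and the count of 0 beside 1196 (7.1%) called higher in the Flag-IPs. When each library was instead scaled to the same total, the split over all genes was 471 (2.8%) to 1576, and 4 members (ATR, BLM, FANCD2 and FANCM) were called. The median log2 fold change was 0.11 over the members and -0.0049 over all genes, and 25 of the 31 were positive, as were 8257 of all 16834 genes. With equal totals the median was 0.0546 over the members and -0.0573 over all genes, and 18 of the 31 were positive. In 14 members the lowest HA-IP exceeded the highest Flag-IP (16.1% of all genes did so), and in 2, RAD51C and PALB2, the lowest Flag-IP exceeded the highest HA-IP (16.1% of all genes).

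**Figure D1:**
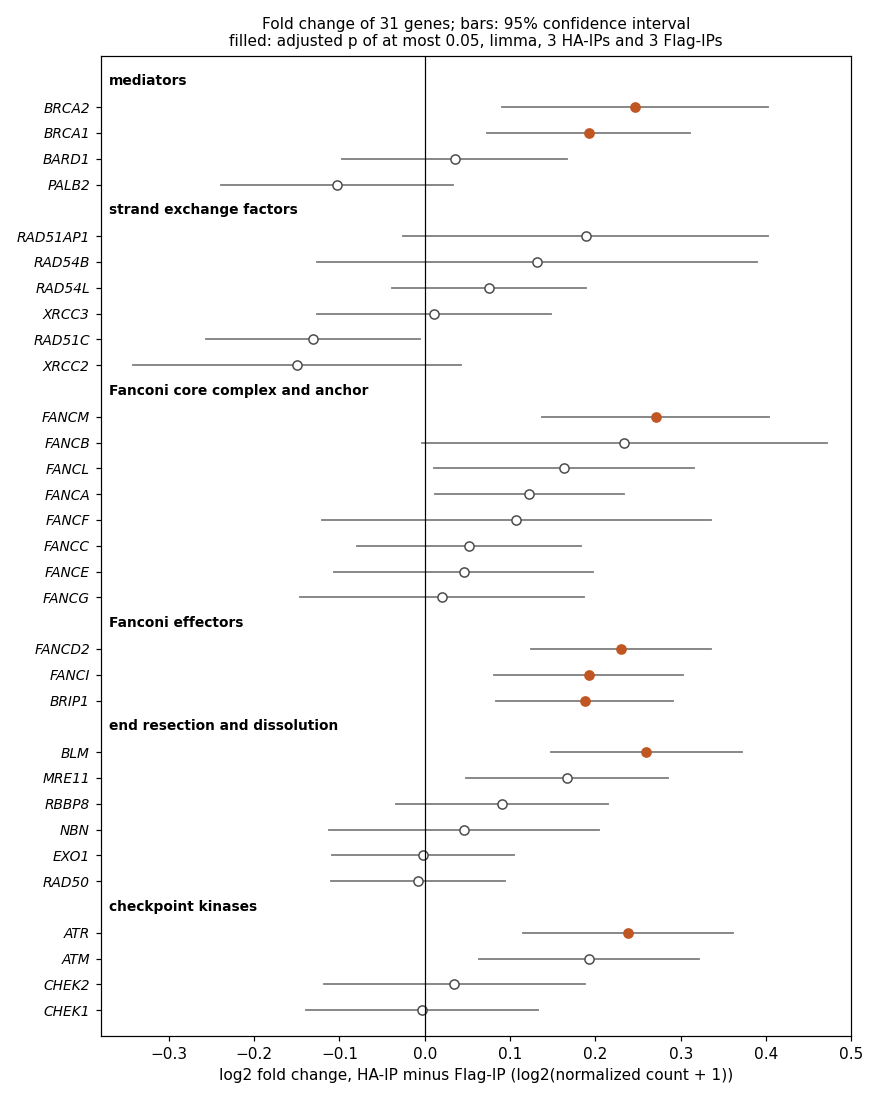
Log2 fold change (HA-IP minus Flag-IP, horizontal axis) of the 31 genes, grouped by role, with the 95% confidence interval from limma as a bar; filled points have an adjusted p of at most 0.05. The 8 filled points lie between 0.19 and 0.27, and the lowest open points are XRCC2 at -0.15 and RAD51C at -0.13.

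These calls rested on few libraries. Without Flag-IP replicate 1, 8 members passed, beside 873 of all 16834 genes called higher in the HA-IPs. BRCA1 and BRCA2 were no longer among these 8 (adjusted p of 0.0793 and 0.0799, limma), and MRE11 and RAD51AP1 were. Without Flag-IP replicate 3, 9 members passed, ATM added to the 8 of the main fit, beside 1550 of all genes. Of the 6 fits that leave out 1 library, BLM passed in 4, ATR, FANCD2 and FANCM in 3, BRIP1 and FANCI in 2, and BRCA1 and BRCA2 in 1. Without Flag-IP replicate 2 no member passed (0.612% of all genes did, higher in the HA-IPs), and 11 members had an unadjusted p under 0.05 in that direction. Without HA-IP replicate 1, 2 members passed (ATR and BLM, beside 1.34% of all genes), without HA-IP replicate 2 again 2 (FANCD2 and FANCM, beside 1.59%), and without HA-IP replicate 3 only BLM (beside 1.89%). limma with a constant prior variance (no trend with the mean) called no member (0.0356% of all genes), with 10 at an unadjusted p under 0.05. Count models on reads recovered from the table called 8 members with edgeR (5.35% of all genes) and 9, ATM added, with DESeq2 (6.2%). The 8 fold changes were positive under each of the 17 other settings in which they were fitted.

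The promoters of 2 called members are shown because their transcripts had the largest fold changes of the list and their windows hold the CCAAT box, the binding sequence of the factor NF-Y that many cell cycle promoters carry. They are the 250 bases before the transcription start, 5′ to 3′ on the gene's strand, from RefSeq (GRCh38.p14), with each CCAAT, or its reverse ATTGG, in capitals. The BLM window is chr15:90717096-90717345 (+ strand) and overlaps an exon of the antisense gene CRTC3-AS1, and the FANCM window is chr14:45135680-45135929 (+ strand).
BLM: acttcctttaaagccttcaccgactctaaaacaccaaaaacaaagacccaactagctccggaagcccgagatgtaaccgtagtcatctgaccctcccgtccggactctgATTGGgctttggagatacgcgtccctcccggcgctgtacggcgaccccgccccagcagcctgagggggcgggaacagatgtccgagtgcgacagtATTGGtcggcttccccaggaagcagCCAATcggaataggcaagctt
FANCM: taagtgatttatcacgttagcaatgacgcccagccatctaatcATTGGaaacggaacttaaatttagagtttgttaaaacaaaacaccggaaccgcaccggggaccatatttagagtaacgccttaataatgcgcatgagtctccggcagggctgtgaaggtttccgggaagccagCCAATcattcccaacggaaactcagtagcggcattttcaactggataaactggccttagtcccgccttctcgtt
In BLM the motif begins 141, 46 and 21 bases before the start, and in FANCM 207 and 74 bases before it. RefSeq windows were at hand for 28 members in 37 windows, and RAD54B, FANCI and NBN have none there. CCAAT on either strand was found for 14 of the 28, among them BLM, FANCM, BRIP1 and BRCA1 of the 7 called members with a window, and in 32% of all 35116 windows. Here and below, a member counts if any of its windows has a match, while the percents are per window, so the 2 measures are unlike. The E2F sequences TTTCCCGC, TTTCGCGC, TTTGCCGC and TTTGGCGC, on either strand, were found for FANCA and FANCC (2.79% of all windows) and for no called member. The cell cycle homology region motifs TTTGAA and TTCGAA were found for 3 of the 28 (14.3% of all windows). These were ATM, FANCC and the called member BRIP1. All these motif hits are matches of letters and not binding sites.

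Among the mediators, BRCA1 and BRCA2 were higher in the HA-IPs, and their partners BARD1 and PALB2 did not pass the test. The calls of BRCA1 and BRCA2 were the least stable of the 8, and each was lost in 11 of the 17 other settings. BRCA1 (chr17:43044295-43170245), a ubiquitin ligase subunit that promotes resection and recombination, gave 4540.1, 4923 and 5183 normalized counts in Flag-IPs 1, 2 and 3 and 5539, 5540.3 and 5630.3 in HA-IPs 1, 2 and 3. The HA-IPs lay close together and all above the Flag-IPs, with a log2 fold change of 0.19 ± 0.05 (SE) and an adjusted p of 0.0394 (limma). BRCA2 (chr13:32315086-32400268), a recombination mediator that acts on single-stranded DNA, gave 1432, 1591 and 1695 in the Flag-IPs against 1867, 1757 and 1966 in the HA-IPs. Its groups did not overlap either (log2 fold change 0.25 ± 0.07 (SE), adjusted p = 0.0429, limma), though the highest Flag-IP and the lowest HA-IP were near each other. PALB2, the bridge between BRCA1 and BRCA2, went the other way in its values: 865, 907 and 885 in the Flag-IPs against 838, 817 and 818 in the HA-IPs. This difference of -0.10 ± 0.06 (SE) did not pass (adjusted p = 0.323, limma). BARD1, the obligate partner of BRCA1, had 1177 ± 27.3 (SD, n = 3) in the Flag-IPs against 1206 ± 54.3 (SD, n = 3) in the HA-IPs, and its groups overlapped. The values of PALB2 and BARD1 are given although they fall outside the rule for named genes, and were chosen after they had been seen.

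None of the 6 strand exchange factors passed the test with limma, edgeR or DESeq2, RAD51C alone had an unadjusted p under 0.05 with limma (0.0425), and their fold changes had both signs. RAD51AP1, which stimulates strand invasion, had the largest of them, 0.19 ± 0.10 (SE), with an adjusted p of 0.241 (limma). Its counts were 988, 744 and 772 in the Flag-IPs against 938, 925 and 969 in the HA-IPs, so 1 Flag-IP lay above all HA-IPs and the other 2 below. Without that library, Flag-IP replicate 1, the log2 fold change was 0.32 with an adjusted p of 0.00866 (limma). This was the 1 fit of the 6 leaving out a library in which RAD51AP1 passed. The lowest of those fold changes was 0.11, without Flag-IP replicate 2 (adjusted p = 0.589, limma). XRCC3, a subunit of the CX3 complex, had 2039, 1965 and 2099 in the Flag-IPs against 2176, 2091 and 1889 in the HA-IPs. The groups overlapped over most of their range (0.010 ± 0.06 (SE)), and 76.7% of the exonic bases of XRCC3 are shared with KLC1, so its reads cannot be assigned with certainty. RAD51C, the other subunit of CX3, had 1729.8, 1646 and 1678 in the Flag-IPs against 1479.7, 1516 and 1621 in the HA-IPs. All its HA-IPs lay below all Flag-IPs, with a log2 fold change of -0.13 (95% confidence interval -0.26 to -0.0052) and an adjusted p of 0.165 (limma). XRCC2 (-0.15, interval -0.34 to 0.04), RAD54B (0.13, interval -0.13 to 0.39) and RAD54L (0.075, interval -0.04 to 0.19) had intervals that include 0. RAD54L and RAD54B are motor proteins that remodel DNA, and 66% of the exonic bases of RAD54B are shared with FSBP.

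All 8 genes of the Fanconi core complex and its anchor had positive fold changes, from 0.020 to 0.27, except that with equal totals those of FANCC, FANCE and FANCG were -0.0016, -0.0070 and -0.033, and 1 of the 8, FANCM, passed the test. FANCM (chr14:45135930-45200890), a translocase that anchors the core complex to DNA, gave 1534, 1573 and 1621 normalized counts in the Flag-IPs against 1907, 1779.7 and 2022 in the HA-IPs. The groups were well apart, at 0.27 ± 0.06 (SE) with an adjusted p of 0.015 (limma), which is the largest fold change of the 31. FANCA, a scaffold of the core complex and its member with the highest counts, gave 5415, 5888 and 5838 in the Flag-IPs against 6440.3, 6084 and 6129.8 in the HA-IPs. The HA-IPs were again all above the Flag-IPs, but the difference of 0.12 ± 0.05 (SE) did not pass (adjusted p = 0.141, limma), and 19.6% of the exonic bases of FANCA are shared with ZNF276. FANCL, the ubiquitin ligase subunit (0.16, interval 0.01 to 0.32, adjusted p = 0.154 with limma), and FANCB (0.23, interval -0.0035 to 0.47, adjusted p = 0.19 with limma) also had groups that did not overlap. FANCC, FANCE, FANCF and FANCG had fold changes of 0.020 to 0.11, with intervals that include 0 and groups that overlap.

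The Fanconi effectors were the 1 role group in which every gene passed. FANCD2 (chr3:10026370-10101932) and FANCI (chr15:89243945-89317261) form the clamp that the core complex ubiquitinates. FANCD2 gave 7721, 7470.0 and 8142 normalized counts in the Flag-IPs against 9129, 8926 and 9295 in the HA-IPs. FANCI gave 15193, 14840.1 and 16242 in the Flag-IPs against 18086, 16978 and 17783 in the HA-IPs. Neither gene had an overlap between the groups, with log2 fold changes of 0.23 ± 0.05 (SE) for FANCD2 (adjusted p = 0.0112, limma) and 0.19 ± 0.05 (SE) for FANCI (adjusted p = 0.0302, limma). BRIP1 (chr17:61679139-61863559), the helicase that binds BRCA1, gave 2870.0, 2881 and 2991 in the Flag-IPs against 3312, 3265 and 3375 in the HA-IPs. The replicates of BRIP1 lay close together in both groups (0.19 ± 0.05 (SE), adjusted p = 0.0258, limma).

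Of the 6 genes of end resection and dissolution, BLM passed the test. BLM (chr15:90717346-90816166), the helicase that dissolves double Holliday junctions and takes part in long-range resection, gave 4493, 4556 and 4959 normalized counts in the Flag-IPs against 5479, 5665 and 5612 in the HA-IPs. It had the smallest adjusted p of the 31, 0.00876 (limma), at a log2 fold change of 0.26 ± 0.05 (SE). RAD50, the coiled-coil subunit of the MRN complex, had 5327, 5499 and 5421 in the Flag-IPs against 5193, 5524 and 5443 in the HA-IPs. Its difference was -0.0081 (interval -0.11 to 0.09), and 76.9% of its exonic bases are shared with a readthrough gene, ENSG00000283782. MRE11, the nuclease of that complex, had groups that did not overlap (1754 ± 67.9 against 1968 ± 39.2, SD, n = 3 each) but an adjusted p of 0.0656 (limma, 0.17 ± 0.05 (SE)). NBN, the third subunit (0.046, interval -0.11 to 0.20), RBBP8, which activates MRE11 (0.090, interval -0.03 to 0.22), and the exonuclease EXO1 (-0.0026, interval -0.11 to 0.10) overlapped between the groups.

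Among the checkpoint kinases, ATR passed, ATM was just outside the threshold, and the kinases they activate did not pass. ATR (chr3:142449007-142578733) gave 3162, 3354 and 3560.4 normalized counts in the Flag-IPs against 3805, 4001 and 4071 in the HA-IPs, with a log2 fold change of 0.24 ± 0.06 (SE) and an adjusted p of 0.0185 (limma). ATM gave 3245, 3516 and 3761 in the Flag-IPs against 3894, 4018 and 4094 in the HA-IPs. Its groups did not overlap, and its log2 fold change of 0.19 ± 0.06 (SE) had an adjusted p of 0.0526 (limma). CHEK1, the target of ATR, had a difference of -0.0030 (interval -0.14 to 0.13), and CHEK2, the target of ATM, one of 0.035 (interval -0.12 to 0.19). In each of the 8 called members the highest Flag-IP was replicate 3, the Flag-IP with the lowest share of heart muscle markers, 0.325%. Among the 6 members not called whose HA-IPs all lay above the Flag-IPs, only ATM had its highest Flag-IP in replicate 3. In FANCA and RAD54L it was replicate 2, and in FANCB, FANCL and MRE11 replicate 1. The share of all genes highest in replicate 3 was not counted, and a link to those markers was not tested.

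**Figure D2:**
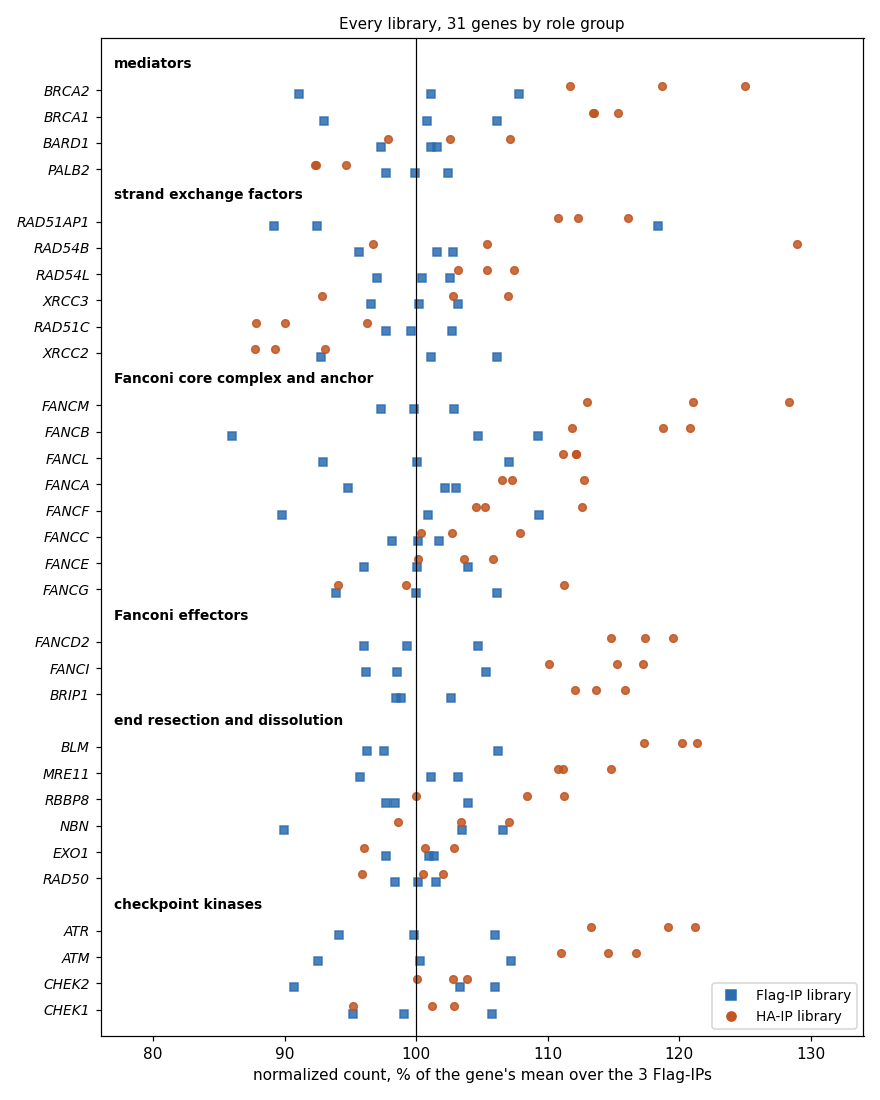
Normalized count in each library as a percent of the gene's mean over the 3 Flag-IPs (horizontal axis), with squares for Flag-IPs and circles for HA-IPs, 31 genes by role group. The circles lie to the right of all squares in 14 genes and to the left of all squares in RAD51C and PALB2.

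Per length of transcript the 31 genes spanned a wide range. Divided by the length of the Ensembl canonical transcript, FANCI was the highest in both groups, at 3259 ± 154 (SD, n = 3) normalized counts per kb in the Flag-IPs against 3722 ± 121 (SD, n = 3) in the HA-IPs, and FANCD2 followed at 1526 ± 66.6 and 1789 ± 36.2. On this scale FANCI was about as far above FANCD2, its clamp partner, in the Flag-IPs as in the HA-IPs. Next came FANCA, EXO1 and BLM, which stood at 1048 ± 47.6, 1080.1 ± 21.8 and 891 ± 48.2 per kb in the Flag-IPs against 1141 ± 35.6, 1078 ± 37.9 and 1066 ± 18.3 in the HA-IPs. The order of FANCA and EXO1 was within their spread, and BLM was below both in the Flag-IPs and level with EXO1 in the HA-IPs. BRCA1 had 689 ± 45.6 and 786 ± 7.38 per kb, well above BRCA2 at 132 ± 11.1 and 156 ± 8.75. XRCC2, FANCF, RAD54B and FANCB were lowest, between 80.1 and 119 per kb as group means.

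**Figure D3:**
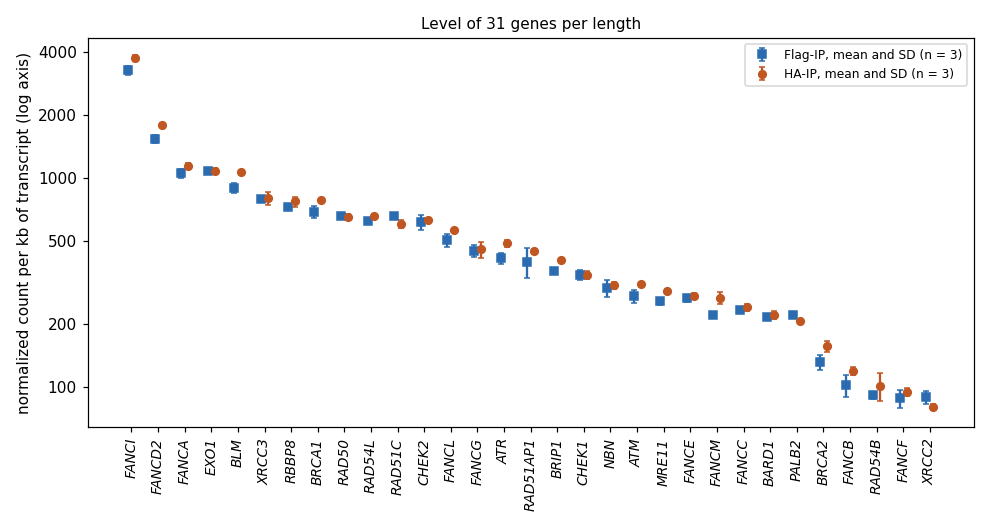
Mean normalized count per kb of canonical transcript (log axis) with the SD over 3 libraries, for the Flag-IPs (squares) and HA-IPs (circles), 31 genes in falling order. FANCI stands highest, at 3259 and 3722, and XRCC2 lowest, at 89 and 80.1.

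The called members were the long ones. Their coding lengths ran from 3747 bases (BRIP1) to 10254 (BRCA2), with a median of 4971, against a median of 2124 for the 23 members not called and 1431 for all coding genes of the table. Of the 12 members with a coding length of at least 3000 bases 8 were called higher in the HA-IPs (66.7%), and among all genes of that length 17.6% were. Of the 19 shorter members none was called, by edgeR or DESeq2 either, beside 5.06% of all genes of that length, and MRE11 and FANCL had an unadjusted p under 0.05 in that direction. PALB2, RAD50, FANCA and ATM are the 4 long members that were not called. The median log2 fold change was 0.19 over the 12 long members and 0.046 over the 19 shorter ones, and 0.10 and -0.013 over all genes of those lengths. Across the 31 genes, Pearson's r between the log2 coding length and the fold change was 0.59 and Spearman's rho 0.62. These are descriptions over genes that share the same 6 libraries.

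**Figure D4:**
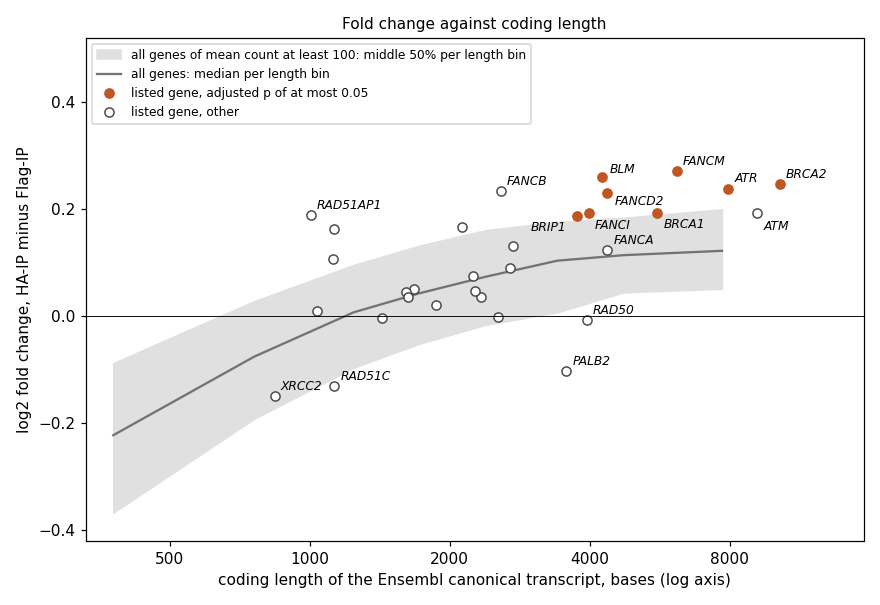
Log2 fold change (HA-IP minus Flag-IP) against coding length of the Ensembl canonical transcript (log axis), with the listed genes as points, filled where the adjusted p is at most 0.05, and the median and middle 50% of all genes averaging 100 or more normalized counts as a line and a band. The line climbs from -0.22 in the shortest bin to 0.12 in the longest. The 8 filled points all lie above that highest value, at 3747 bases or more. They were picked by a test of this same fold change, so their height is no separate result.

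Over the 11333 coding genes that averaged 100 or more normalized counts, Spearman's rho between coding length and fold change was 0.46. The fit was therefore repeated after the trends of the log2 values with GC content and coding length had been removed in each library, a step chosen after seeing the data. No member was then called higher in the HA-IPs (5.55% of the 13864 coding genes were), and 8 had an unadjusted p under 0.05 in that direction. BLM came nearest, with a log2 fold change of 0.14 and an adjusted p of 0.0507 (limma), followed by FANCD2 with 0.12 and 0.0567. BRCA1 stood at 0.067 (adjusted p = 0.364, limma). In this fit PALB2 was called higher in the Flag-IPs, at -0.21 with an adjusted p of 0.0345 (limma). When total transcript length stood in place of coding length, 6 members were called (BLM, FANCD2, FANCI, FANCL, FANCM and RAD51AP1, beside 6.73% of all genes), and ATR, BRIP1, BRCA1 and BRCA2 were not. In that fit ATR stood at 0.18 (adjusted p = 0.0508, limma), BRIP1 at 0.14 (0.0587), BRCA1 at 0.13 (0.114) and BRCA2 at 0.23 (0.071). Whether length itself has a part in the differences was not tested further.

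Ratios of partner genes within a library do not depend on how libraries are scaled. The 8 pairs, and which gene of each is divided by which, were chosen after the values had been seen, so how many separated and in which direction is no result. The log2 ratio of BRCA2 to PALB2 was 0.73, 0.81 and 0.94 in the Flag-IPs against 1.16, 1.10 and 1.26 in the HA-IPs, a difference of 0.35. That of ATR to CHEK1 differed by 0.24, MRE11 to RAD50 by 0.18, ATM to CHEK2 by 0.16 and BRCA1 to BARD1 by 0.16, also without overlap of the groups. Each of these 5 had an exact two-sided permutation p of 0.1, the smallest that 3 against 3 can give, and 0.16 after Benjamini-Hochberg adjustment over the 8 pairs, so none could pass 0.05. The ratio of FANCD2 to FANCI was nearly constant, -0.99 ± 0.01 (SD, n = 3) in the Flag-IPs and -0.95 ± 0.03 (SD, n = 3) in the HA-IPs, with an exact permutation p of 0.2. FANCB to FANCL (difference 0.072) and RAD51C to XRCC3 (difference -0.14) overlapped, each with an exact permutation p of 0.4. In every pair, separated or overlapping, the first gene codes for the longer protein, except in the pair of MRE11 and RAD50. Length therefore did not set the separated pairs apart from the others.

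**Figure D5:**
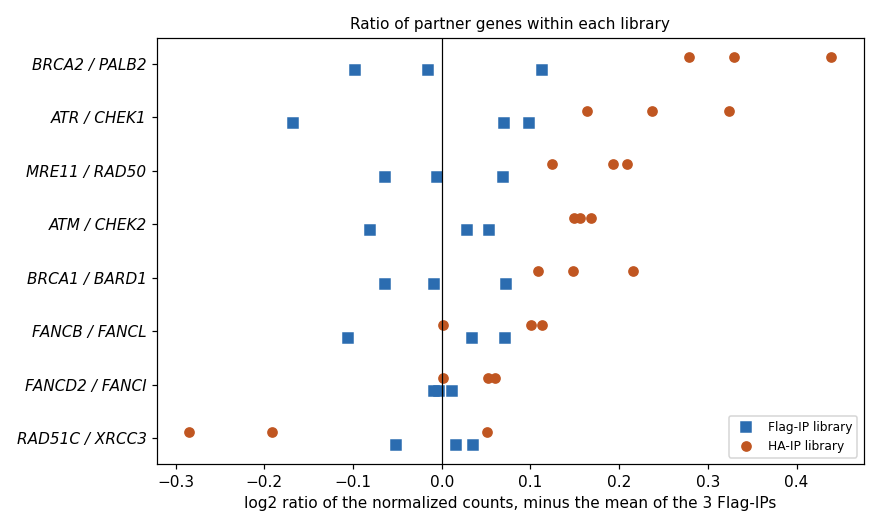
Log2 ratio of the normalized counts of 2 partner genes in each library, minus the mean over the 3 Flag-IPs (horizontal axis), with squares for Flag-IPs and circles for HA-IPs. In the upper 5 pairs all circles lie to the right of all squares, by means of 0.16 to 0.35, and in the lower 3 pairs the groups overlap.

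Other genes of the same pathways, a list of 69 of which 68 were in the table, held 7 genes (10.3%, beside 5.79% of all genes) with a call toward the HA-IPs and 2 with a call toward the Flag-IPs (beside 7.1%). With equal totals these counts were 3 and 5. TOPBP1, which activates ATR, was at 5774 ± 330 in the Flag-IPs against 6961 ± 225 in the HA-IPs (SD, n = 3 each), for a log2 fold change of 0.27 (adjusted p = 0.00862, limma). RIF1, which restrains resection (0.25), the resection nuclease DNA2 (0.24), MCM9, a helicase of recombination (0.24), the kinase WEE1, which holds back mitosis (0.23), and RPA1, the large subunit of the single-strand binding complex (0.17), were also called. ATRIP, the partner of ATR, was called at 1.43, from 16.9, 23.4 and 43.4 normalized counts in the Flag-IPs to 79.7, 78.2 and 58.4 in the HA-IPs, a low level at which a few reads weigh heavily. Higher in the Flag-IPs were TIPIN, a fork protection factor (3255 ± 171 against 2488 ± 160 in the HA-IPs, SD, n = 3 each, log2 fold change -0.39, adjusted p = 0.00306 with limma), and RPA3, the small subunit of the single-strand binding complex, at -0.67 (adjusted p = 0.0429, limma). RPA3 passed in 1 of the 6 fits that leave out 1 library and stood at -0.44 without Flag-IP replicate 1, which had 205 normalized counts against 131 and 125 in the other 2 Flag-IPs, while TIPIN passed in all 6. TIPIN and RPA3 have coding lengths of 903 and 363 bases. Of the genes called toward the HA-IPs, RPA1, WEE1 and ATRIP have 1848, 1938 and 2373 bases. DNA2, MCM9, TOPBP1 and RIF1 have 3180, 3429, 4566 and 7416 bases. The median log2 fold change over the 68 genes was 0.026. Without Flag-IP replicate 2 or HA-IP replicate 1 none of the 68 was called higher in the HA-IPs, and without HA-IP replicate 2 or HA-IP replicate 3, 2 were.

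Non-homologous end joining rejoins broken ends directly, and 3 of its 10 listed genes (30%, beside 5.79% of all genes) passed with higher levels in the HA-IPs. They were XRCC5 (27294 ± 1219 against 32981 ± 970 in the HA-IPs, SD, n = 3 each, 0.27) and XRCC6 (0.20), the 2 subunits of the Ku ring that holds the ends, and the ligase LIG4 (0.29). PRKDC, the kinase that joins Ku, had 0.26 with an adjusted p of 0.0652 (limma). None of the 10 was called higher in the Flag-IPs (beside 7.1% of all genes, and none at an unadjusted p under 0.05 either). The median over the 10 was 0.064. With equal totals XRCC5 and XRCC6 kept the call and LIG4 did not (adjusted p = 0.0501, limma). Of the 6 fits that leave out 1 library, XRCC5 passed in 5, LIG4 in 3 and XRCC6 in 2. Unlike the called members, XRCC5, XRCC6 and LIG4 have coding lengths under 3000 bases (2196, 1827 and 2733).

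The genes whose pattern over the 6 libraries was most like that of BLM, the member with the smallest adjusted p, were ERMP1, CCN1, ZNF784, IRS4 and DDB1. They were taken from the 11894 other genes that averaged 100 or more normalized counts, by Pearson's r of the log2 values over the 6 libraries, which was 0.997 to 0.998. The 6 libraries form 2 groups, and much of the likeness is the difference between the groups that chose BLM. None of the 5 is on the lists of recombination, Fanconi, checkpoint or end joining genes.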

How the data were processed

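RNA recovered from 3 Flag-IPs and 3 HA-IPs of 1 cell line was compared. Per the submitters' processing notes and the study's methods, the authors trimmed the reads (paired, 150 bp) by Trimmomatic 0.36, aligned them by STAR 2.5.2b to GRCh38, counted them per gene with featureCounts of Subread 1.5.2, excluded genes with few reads (a filter named as 10 reads in 3 samples) and used DESeq2. Whether counting used strand is not given in the sources used here. The deposited values are a normalized signal, that is read counts divided by a size factor per library, and not raw counts. Columns with the authors' own comparison (log2 fold change, adjusted p) were not used.

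The main test was limma 3.58.1 (R 4.3.3) on log2(normalized count + 1), with a prior variance that follows the mean and no covariate, across all 16834 genes. Divided by the size of its library's smallest step, every value of all 6 libraries gave a whole number of reads (100% of values, within 0.01 reads), including HA-IP replicate 2, whose step of 0.99 is just under 1. The recovered reads served for the alternatives DESeq2 1.42.0 and edgeR 4.0.16 (TMM, quasi-likelihood). Other alternatives were pseudocounts of 0.1 and 10, a mean of at least 50, quantile normalization, equal totals, no variance trend, a replicate block, a threshold of 0.01, each library left out, and trends with GC content and transcript length removed by natural splines of 5 degrees of freedom (MASS 7.3.60.0.1). The fit with coding length was added after seeing the data. Lengths and coordinates are those of Ensembl canonical transcripts and genes in GENCODE release 44 (GRCh38). Ratios were compared with exact permutation tests (scipy 1.17.1). The fits were tested on simulated data.

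The members and all lists were chosen with earlier results of these data known. Values in all 6 libraries were to be given for each called member and, in each role group, for the member with the largest absolute fold change and the one with the highest mean. Other pathway genes are named if called. XRCC2, EXO1 and other members given only by fold change or group mean are named because every member is. RAD51C, PALB2 and the partner pairs were given per library after their values were seen.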

Additional observations from a re-analysis of the deposited data

How the results depend on the processing

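Pseudocounts of 0.1 and 10, a mean of at least 50 and both count models kept the counts of called members within 1.5 times of 8. Quantile normalization left 5 members called higher in the HA-IPs (beside 704 of all 16834 genes) and 1 other pathway gene called higher in the Flag-IPs. The median log2 fold change was then 0.0813 over the members and 0.0443 over all genes. Equal totals left 4 members (beside 471 of all genes) and 3 other pathway genes higher in the HA-IPs, and 5 other pathway genes higher in the Flag-IPs. The median was then 0.0546 over the members and -0.0573 over all genes. Without the variance trend 188 genes were called in all, with 0 members and 0 other pathway genes in either direction. A threshold of 0.01 left 704 genes in all, 1 member and 1 other pathway gene in each direction. Removing GC and transcript length trends gave a median of 0.0867 and 4 other pathway genes higher in the Flag-IPs. With coding length in its place, 0 members were called toward the HA-IPs against 1 toward the Flag-IPs, at a median of 0.0492. The replicate block gave 1662 genes in all, 7 members (ATM in, BRCA1 and BRCA2 out) and 1 other pathway gene higher in the Flag-IPs. The numbers gave no sign of a pairing: deviations of same-numbered libraries correlated at -0.162, 0.0354 and -0.319, and no library correlated best with its own number. These deviations are from means of only 3 libraries, so they cannot settle whether libraries were paired. Leaving out each library in turn gave 620 to 3059 genes in all, 0 to 9 members higher in the HA-IPs, 0 to 10 other pathway genes higher in the HA-IPs and 1 to 3 higher in the Flag-IPs, with a member median of 0.0688 to 0.136. The cause of these shifts was not tested, beyond the fewer libraries in the last.

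No called member changed sign in any setting. Of 527 fits of single members, 433 kept direction and side of the threshold, 58 lost the call, 9 gained one and 27 changed sign, all of these in members near 0 that did not pass. With equal totals the log2 fold change was -0.0179 for BARD1, -0.0181 for CHEK2, -0.0016 for FANCC, -0.0070 for FANCE, -0.0329 for FANCG, -0.0069 for NBN and -0.0425 for XRCC3. With GC and coding length trends removed it was -0.0361 for BARD1, -0.0049 for CHEK2, -0.0172 for NBN and -0.00016 for RBBP8. With transcript length it was -0.00076 for XRCC3, and with quantile normalization 0.0037 for CHEK1. Leaving out 1 library gave -0.0381 to 0.0382 for CHEK1, -0.0338 to 0.0783 for CHEK2, -0.0244 to 0.0254 for EXO1, -0.0477 to 0.0731 for FANCG, -0.0283 to 0.0937 for NBN, -0.0265 to 0.0181 for RAD50 and -0.0333 to 0.0688 for XRCC3. The lowest members, XRCC2, FANCB, FANCF and RAD54B, had standard errors of 0.09 to 0.12, and RAD51AP1, with more counts, had 0.10. Depth as a limit on them was not tested.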
